A study of Mus musculus with 6 samples.

Results

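The mesothelial and epicardial markers described here are 10 genes of the thin cell layer that covers the heart: Lrrn4, Upk3b, Upk1b, Msln, Wt1, Krt8, Krt18, Krt19, Bnc1 and Gpm6a. They were listed by name around Lrrn4, which was chosen by its higher signal in Cav1 knockout than in wild-type hearts on these same arrays. All 10 had at least 1 probe set that the platform annotation assigns to that symbol alone, out of 18193 genes so represented. They hold 17 of the 45037 probe sets that are not controls, a probe set being the group of short oligonucleotides that together measure 1 transcript. RNA came from heart tissue of male mice aged 5 to 6 months and fasted for 6 hours, and each of the 6 samples, called hearts here, was measured on 1 Affymetrix array. Of these, 3 were labelled wild type and 3 Cav1KO, a knockout of the gene for caveolin-1, the main coat protein of the membrane pits called caveolae. The labels name neither the strain, nor the allele, nor whether the knockout is limited to a cell type, and nothing states that each sample is a separate animal, and the p-values therefore reflect only how far these samples spread, which may be technical.

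The heart is wrapped by the epicardium, a single sheet of flat mesothelial cells that also lines the facing side of the pericardial sac. Mesothelial cells are unusual in that they carry keratins and other epithelial proteins while arising from mesoderm, and in the embryo epicardial cells leave the sheet to form fibroblasts and mural cells of the heart. In adult tissue the layer makes up a small share of the heart, so its RNA in an extract of whole heart depends both on the cells and on how much surface, with the attached fat and sac, is taken with the muscle.

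A pair of wild-type hearts stood apart, in different ways. Over all probe sets wild type 1 was the least like the others, with Spearman correlations of 0.989 to 0.993, and the trimmed means of the arrays differed by 8.42% with it and by 2.75% without it. Wild type 3 stood apart in the genes described here and in a few of other tissues. Results that rest on wild type 3 are given with and without it. Each sample title also ends in a longer number, whose meaning is not given. That of wild type 3 is close to those of the knockout hearts, while those of wild type 1 and 2 lie well below. Without wild type 3, genotype and number series coincide fully, so the differences given without it cannot separate them. Any effect of the series was not tested. In wild type 3, genes of airway secretory cells were present that were near the bottom of the range elsewhere: the Scgb1a1 intensity was 513, against 9.45 to 11.6 in the other 5 hearts, and that of Bpifa1 was 453, against 6.78 to 9.32. The fat markers Ucp1 and Adipoq were also highest there, at 802 and 816. Cav1 itself, as a check of the labels, differed by -5.02 on the log2 scale between knockout and wild type (limma, Benjamini-Hochberg adjusted p = 1.65e-09). Heart muscle markers (Myh6, Tnnt2, Tnni3, Actc1, Myl2, Myl3, Ryr2 and Mb) were among the brightest probe sets on all arrays, with a summed intensity of 140057 to 142051. At that end of the range quantile normalisation holds values nearly equal, and some were level before it. Actc1 ran from 20144 to 20599 as deposited, where the array maxima were 21908 to 22630. The sum therefore does not measure the amount of muscle. A dimmer Myh6 probe set gave 2735, 4133 and 2654 in wild type, against 2144, 2329 and 2358 in knockout, with no overlap, and did not pass. At an adjusted p under 0.05, 714 of the 22519 tested probe sets passed, or 3.17%. Knockout was higher for 74.4% of those 714. With the intensities as deposited 635 probe sets passed, and knockout was higher for 90.9% of them. When arrays were centred on their medians 626 passed, with knockout higher for 93.5%.

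Promoter sequence was at hand for 6 of the 10 genes, from RefSeq on build GRCm38.p6. The 250 bases before the listed start site are shown for Lrrn4, Upk3b and Gpm6a, the genes whose heart-by-heart values are followed most closely below, 5′ to 3′ on the gene's own strand. Capitals mark the MCAT element, CATTCC on either strand (read as GGAATG on the other), the letters bound by TEAD factors.
Lrrn4 (chr2:132880863-132881112, minus strand): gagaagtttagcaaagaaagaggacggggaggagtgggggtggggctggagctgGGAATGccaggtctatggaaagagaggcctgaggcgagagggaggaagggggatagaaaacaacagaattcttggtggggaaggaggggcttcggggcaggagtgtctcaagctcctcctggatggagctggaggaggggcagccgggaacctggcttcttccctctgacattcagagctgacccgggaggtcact
Upk3b (chr5:136038246-136038495, plus strand): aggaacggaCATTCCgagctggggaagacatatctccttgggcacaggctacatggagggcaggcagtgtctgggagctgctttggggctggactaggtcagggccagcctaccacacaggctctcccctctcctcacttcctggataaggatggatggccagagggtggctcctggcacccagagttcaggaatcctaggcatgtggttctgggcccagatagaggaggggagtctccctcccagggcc
Gpm6a (chr8:54779184-54779433, plus strand): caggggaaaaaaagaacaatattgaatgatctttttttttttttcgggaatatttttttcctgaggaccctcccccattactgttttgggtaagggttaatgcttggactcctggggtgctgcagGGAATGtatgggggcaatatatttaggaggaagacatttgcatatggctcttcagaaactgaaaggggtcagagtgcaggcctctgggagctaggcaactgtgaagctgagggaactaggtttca

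Each of these windows holds the MCAT element 1 time and none holds a TATA box (TATAAA, either strand) or a GC box (GGGCGG, either strand). Over all 32851 windows of that length, 12.6% held the MCAT letters, 12.4% the TATA box and 32.7% the GC box. A second listed start of Gpm6a, and the windows of Bnc1, Krt8 and Krt18, hold no MCAT letters, and that of Bnc1 holds 5 GC boxes. A match is a description of the letters and not evidence that a factor binds.

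Lrrn4 encodes a membrane protein with leucine-rich repeats that is used as a marker of mesothelial cells. Its only probe set (1435648_at) gave intensities of 125, 94.8 and 50.8 in wild type 1, 2 and 3, and of 172, 213 and 201 in knockout 1, 2 and 3. The groups did not overlap, and the gap between the lowest knockout and the highest wild-type heart was 0.42 on the log2 scale. Group means were 90.2 ± 37.3 and 195 ± 20.8 (SD, n = 3 each). The difference was 1.05 after 16 was added to each intensity and the log2 taken, a scale that shrinks the change of dim genes. It is the value that put the gene on the list and is given with no test. Most of the spread lay in the wild-type group, where the range was 1.08 on the log2 scale, against 0.28 in the knockout group. Without wild type 3 the difference was 0.75.

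Upk3b and Upk1b encode uroplakins, plaque proteins first known from bladder lining, and mesothelial cells also make these members of the family. The brighter probe set of Upk3b (1454881_s_at) gave 417, 367 and 153 in wild type, against 371, 426 and 433 in knockout hearts. Wild type 1 lay within the range of the knockout hearts, wild type 2 just below it, and wild type 3 far below all of them. The other (1434237_at) showed the same order in wild type, with 259, 248 and 107, against 246, 299 and 287 in knockout. Their differences of 0.48 (95% interval -0.18 to 1.14) and 0.49 (-0.10 to 1.09) did not pass, and they came to 0.06 and 0.12 without wild type 3.

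Upk1b had 4 probe sets that did not give the same result. The brightest (1439760_x_at), whose suffix marks probes that may also match other transcripts, gave 171, 170 and 189 in wild type, against 180, 184 and 226 in knockout, with overlapping groups and a difference of 0.14 that did not pass. The other 3 rose in knockout, with no overlap. For 1457065_at the wild-type values were 77.6, 62.4 and 55.7 and the knockout values 117, 95.6 and 103, a rise of 0.58 (limma, SE 0.11, adjusted p = 0.0255). For 1455464_x_at they were 53.6, 46.3 and 31.3 against 84.1, 80.5 and 68.8, a rise of 0.67 (limma, SE 0.14, adjusted p = 0.0362). For 1435831_at they were 32.4, 39.3 and 28.6 against 52.6, 71.2 and 55.4, a rise of 0.61 (limma, SE 0.11, adjusted p = 0.0242). Wild type 3 was the lowest heart in each of these 3, but the knockout hearts also lay above wild type 1 and 2, and without wild type 3 the differences were 0.50, 0.51 and 0.55 with limma adjusted p of 0.0885, 0.0664 and 0.0929.

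Gpm6a, a membrane glycoprotein of neurons that epicardial and other mesothelial cells make too, came next to Lrrn4 in the size of its difference. Its brighter probe set (1456741_s_at) gave 178, 158 and 108 in wild type, against 233, 221 and 272 in knockout. The groups did not overlap, and the difference of 0.67 (95% interval 0.33 to 1.01) fell just short of the threshold (limma adjusted p = 0.0512). It passed under 6 of the alternatives, among them the intensities as deposited (limma adjusted p = 0.0293) and without wild type 1 (0.0413). The dimmer one (1426442_at) gave 47.3, 59.1 and 35.8 against 78.7, 99.9 and 99.7 and rose by 0.79 (limma, SE 0.14, adjusted p = 0.0189). Without wild type 3 the differences were 0.48 and 0.65, and neither passed (limma adjusted p = 0.0747 and 0.0540). Genes of a nerve and glia list went both ways. Stmn2, a neuronal protein, rose at both of its probe sets, by 0.52 and 0.80 (limma adjusted p = 0.0474 and 0.00129), while Uchl1 and Tubb3 had differences of 0.10, which did not pass, and 0.01, too low to be tested. Sox10, a transcription factor of glia, had -0.29 at its brightest probe set, with knockout below wild type and no overlap, and did not pass (limma adjusted p = 0.0718). S100b, a calcium-binding protein of glia, had -0.26 and -0.14 and was too low to be tested. The part that nerve RNA has in the Gpm6a values was not tested.

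Msln encodes mesothelin, a lipid-anchored protein of the mesothelial surface. It was dim (1460238_at), with 63.5, 54.4 and 37.5 in wild type, against 59.6, 80.2 and 58.9 in knockout. The groups overlapped, with wild type 3 again lowest and knockout 2 highest. The difference was 0.29 (95% interval -0.05 to 0.63) and did not pass, and it was 0.13 without wild type 3.

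The transcription factors Wt1 and Bnc1 differed from each other. Wt1, a zinc finger protein that marks the embryonic epicardium, gave 56.7, 63.6 and 58.0 in wild type, against 62.8, 72.9 and 63.8 in knockout (1425995_s_at). Its groups overlapped, wild type 1 and not wild type 3 was the lowest heart, and the difference of 0.13 (95% interval -0.04 to 0.30) did not pass. Bnc1, the zinc finger protein basonuclin 1, had the lowest mean of the 17 probe sets (1424890_at, at percentile 47.5 of all probe sets) and was left out of the test by the filter on low values. It stood at 34.6, 37.4 and 18.7 in wild type and at 47.1, 47.1 and 63.7 in knockout. The knockout hearts were all above the wild-type hearts, by a mean of 0.59, or 0.39 without wild type 3. With all probe sets in the fit, Bnc1 had a limma adjusted p of 0.134.

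The keratins Krt8, Krt18 and Krt19 are the intermediate filament proteins of simple epithelia; Krt8 pairs with Krt18 or Krt19 to form a filament. Krt19 (1417156_at) gave 71.0, 83.4 and 51.7 in wild type, against 100.02, 115 and 97.3 in knockout. Its groups did not overlap, and the difference was 0.52 (95% interval 0.22 to 0.82, limma adjusted p = 0.0740) or 0.37 without wild type 3. It passed without wild type 2 (limma adjusted p = 0.0332) and with array weights (0.0268). Krt18 (1448169_at) gave 43.7, 45.1 and 36.6 against 46.4, 61.5 and 53.3, with no overlap and a difference of 0.27 (95% interval 0.05 to 0.49) that did not pass. The brightest of 3 Krt8 probe sets (1420647_a_at) gave 72.4, 55.8 and 54.5 against 65.7, 83.7 and 60.8. Its groups overlapped, and the differences of the 3 Krt8 probe sets, 0.16, 0.14 and 0.20, did not pass. Without wild type 3 they were 0.10, 0.06 and 0.16. Of 6 other epithelial genes, Epcam and Elf3 were tested and did not pass, and Cdh1, Krt7, Krt20 and Cldn4 were too low to be tested. Their summed intensity ran from 217 to 236 in wild-type and from 221 to 224 in knockout hearts. Krt7, a keratin that mesothelial cells also make, gave 33.2, 33.0 and 25.3 against 44.1, 42.0 and 36.6, with no overlap.

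**Figure D1:**
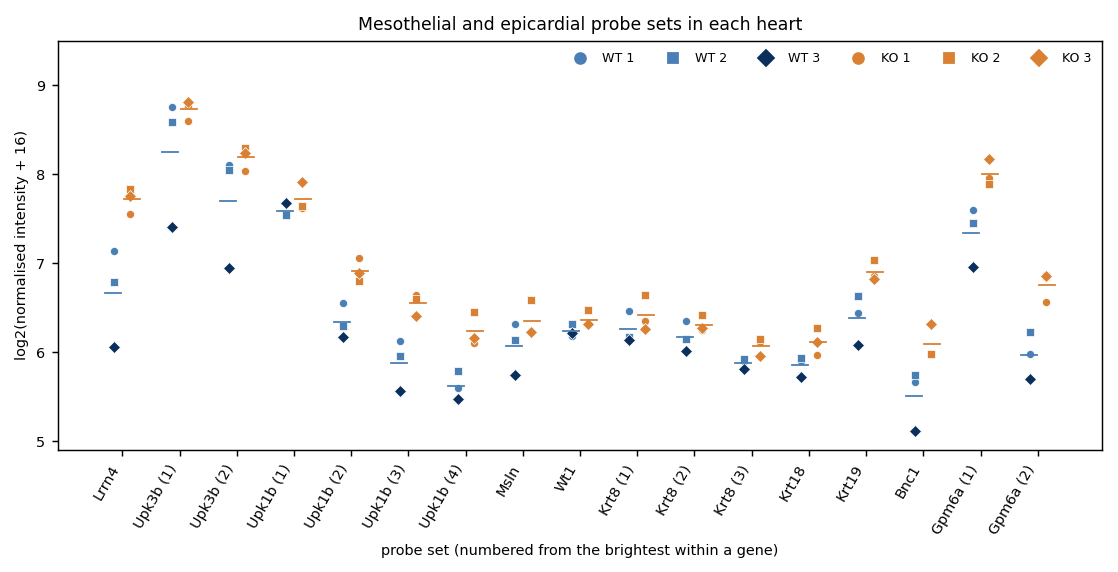
The 17 probe sets of the 10 genes are on the x axis and log2(normalised intensity + 16) on the y axis, with 1 point per heart and a short line at each group mean (n = 3 each). Wild type 3, the dark diamond, is the lowest heart in 15 of the 17.

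Set side by side, the Lrrn4 difference was shared in direction by all members, but few of them passed. The knockout mean was higher for all 17 probe sets, from 0.13 to 1.05 on the log2 scale, against 47.0% of all probe sets. It was also higher for all 14 fibroblast and for 9 of 10 endothelial probe sets of the lists described below. The median difference over the brightest probe set of each of the 10 genes was 0.39, Lrrn4 included, and 0.19 without wild type 3. Over the 9 genes tested at that probe set it was 0.29, Lrrn4 included. The median of all tested probe sets was -0.0096. Of the 15 tested probe sets of the 9 genes other than Lrrn4, 4 passed as higher, 3 of Upk1b and 1 of Gpm6a, none passed as lower and 11 did not pass. None of these 4 is the brightest of its gene. At the brightest probe set, by which genes of the other lists are counted below, none of the 8 tested genes other than Lrrn4 passed. Over all probe sets tested, 2.36% passed as higher and 0.813% as lower. The number of member probe sets other than Lrrn4 passing as higher was 0 without wild type 3, knockout 2 or knockout 3. It was 1 without knockout 1, and 3 without wild type 1 or wild type 2. Over all probe sets 531 passed as higher with all hearts. That count was 238, 186 and 395 without wild type 3, knockout 2 and knockout 3. It was 154, 362 and 552 without knockout 1, wild type 1 and wild type 2. Groups did not overlap, with knockout above wild type, in 10 of the 17, against 10.0% of all probe sets. The genes were proposed from this same comparison, so these counts describe the list and support nothing. In bulk tissue, fewer cells of a type and less RNA per cell cannot be told apart.

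**Figure D2:**
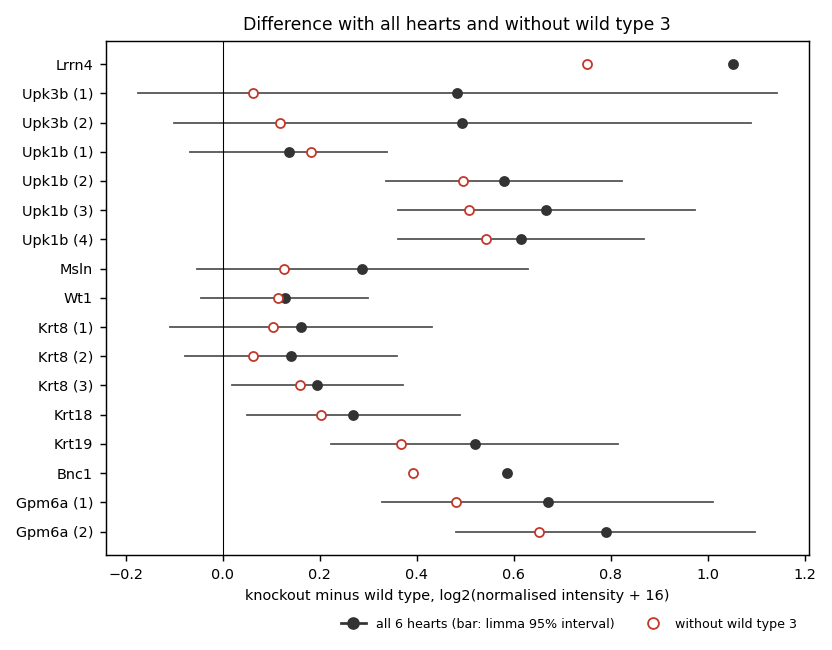
Knockout minus wild type for each probe set, on the scale of log2(normalised intensity + 16), with all 6 hearts (filled, bars are limma 95% intervals, none drawn for Lrrn4 or the untested Bnc1) and without wild type 3 (open). The open points lie to the left of the filled ones except for the brightest Upk1b probe set, and those of Upk3b come to 0.06 and 0.12.

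Across hearts, wild type 3 was the lowest of the 6 hearts in 15 of the 17 member probe sets; it was lowest in 14.7% of all 45037. When all probe sets were ranked by how far wild type 3 lay below the lowest of the other 5 hearts, Upk3b held ranks 1 and 2, with gaps of 1.18 and 1.09 on the log2 scale. Lrrn4 was at rank 4 (0.73), Bnc1 at rank 8 (0.55) and Gpm6a at rank 10 (0.49). An Upk1b probe set followed at rank 22, Msln at 24 and Krt19 at 32. Wt1 and the brightest Upk1b probe set, in which wild type 3 was not the lowest, were at ranks 10584 and 30283. At a gap of at least 0.5, wild type 3 lay below all other hearts in 9 probe sets, of which 4 were members. The same gap was found in 50 probe sets for wild type 1, 10 for wild type 2, 5 for knockout 1, 14 for knockout 2 and 2 for knockout 3, with 0 members in each of these. Within the knockout group the order was less even: knockout 2 was highest in 11 of the 17, knockout 3 in 4 and knockout 1 in 2.

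Markers of some other cells, fat and airway among them, moved the other way in wild type 3. The summed intensity of 5 adipocyte markers (Adipoq, Cidec, Lep, Retn and Ucp1) came to 469, 840 and 1803 in the wild-type hearts, against 192, 190 and 523 with the knockout. All 5 had a lower mean in knockout and none passed the test; 2 were too low to be tested. The summed intensity of 7 lung markers came to 282, 233 and 766 in the wild-type hearts, against 215 to 242 with the knockout, and in wild type 3 Scgb1a1 made up most of it. The alveolar markers in that list differed far less: Sftpc stood at 39.1 in wild type 3 against 24.1 to 33.0 elsewhere, Sftpd at 27.8 against 19.7 to 24.0 and Sftpa1 at 17.7 against 13.2 to 14.8, each highest in wild type 3 but dim. Sftpb, at 108 against 88.0 to 143, was not. Of the airway genes, chosen after their values were seen, Cyp2f2 stood at 251 in wild type 3 and at 22.3 to 27.4 elsewhere, and Scgb3a2 at 209 against 21.8 to 24.1. Over the 10 member genes, the summed intensity came to 1233, 1131 and 759 in the wild-type hearts, against 1338, 1503 and 1530 with the knockout. The part of these other tissues in the low member values of wild type 3 was not tested. Without that heart, the member sum was still lower in both wild-type hearts than in all 3 knockout hearts. This sum includes Lrrn4, which was chosen for its higher knockout signal, so it is a description only.

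**Figure D3:**
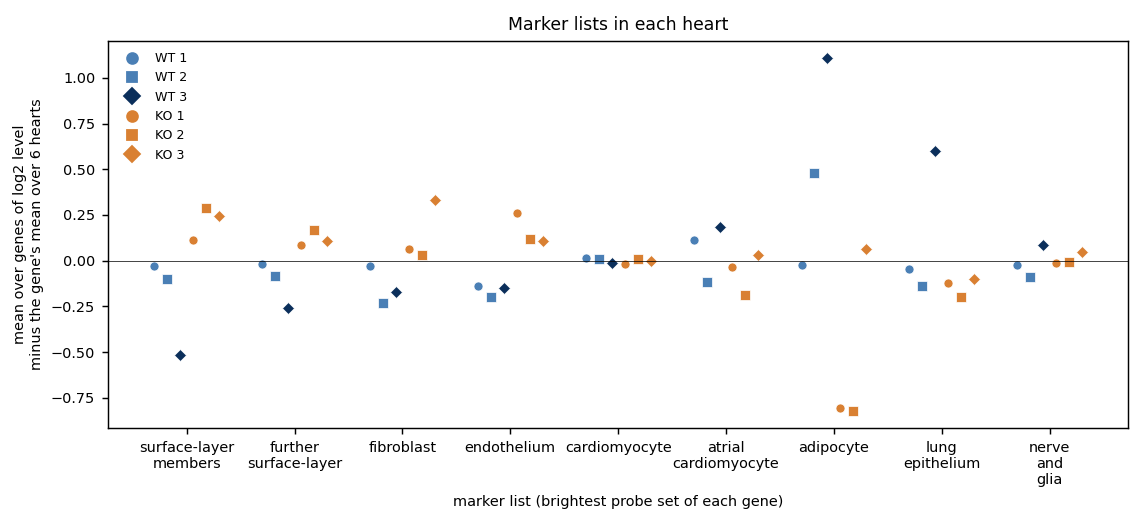
For each marker list, the y axis gives the mean over genes of the log2 level minus that gene's mean over the 6 hearts, with 1 point per heart. Wild type 3 is lowest for the surface-layer members, at -0.52. It is highest for the adipocyte list, at 1.11, the lung list, at 0.60, the atrial list, at 0.19, and the nerve and glia list, at 0.09. For the fibroblast and endothelial lists it lies at -0.17 and -0.15, and wild type 1 and 2 are negative there too.

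Some fibroblast and endothelial genes also rose. The knockout mean was higher in all 14 fibroblast and in 9 of 10 endothelial probe sets. Groups did not overlap, with knockout above, in 9 of the 14 and 6 of the 10. The median difference over the brightest probe set of each gene was 0.25 for fibroblast and 0.33 for endothelial genes. For the members it was 0.39, Lrrn4 and the untested Bnc1 included. Every fibroblast and endothelial gene was tested at that probe set, and over the 9 members so tested the median was 0.29, Lrrn4 included. Of 7 fibroblast genes Col1a1 and Col3a1 passed as higher at their brightest probe sets, by 0.51 and 0.65, and none passed as lower. The fibroblast sum came to 14649, 12867 and 13591 in the wild-type hearts, against 15395, 15047 and 18473 with the knockout. Of 6 endothelial genes Pecam1, Tie1 and Tek passed as higher, by 0.71, 0.42 and 0.49, and none passed as lower. Pdgfra, Dcn, Dpt, Cdh5 and Kdr overlapped between the groups at their brightest probe sets and did not pass. In neither list was wild type 3 mainly the lowest heart, which it was in 2 of 14 fibroblast and 2 of 10 endothelial probe sets. Of 4 atrial genes (Myl7, Myl4, Nppa and Sln) none passed, and their sums overlapped between the groups, at 29119 to 35003.5 in wild type and 27645 to 31887 in knockout. Each of the 4 was highest in wild type 3 at its brightest probe set, at 9544, 6453, 13794 and 5213, and so was the sum. The part of atrial tissue in the low member values of wild type 3 was not tested. Liver markers, with a sum of 114 to 140 over 4 genes, differed little between hearts.

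Of 21 further genes known from mesothelium or epicardium, 13 were bright enough to be tested at their brightest probe set. Of these, 2 passed as higher and none as lower, against 2.36% and 0.813% of all tested probe sets. Igfbp6, a secreted binding protein of insulin-like growth factors, gave 431, 401 and 330 in wild type, against 703, 758 and 751 in knockout. It rose by 0.91 (limma, SE 0.089, adjusted p = 0.00161), and by 0.80 without wild type 3 (limma adjusted p = 0.00314). Cldn15, a tight junction claudin, gave 77.5, 59.9 and 47.9 against 128, 132 and 104. It rose by 0.83 (limma, SE 0.14, adjusted p = 0.0156), and stood at 0.70 without wild type 3 (limma adjusted p = 0.05004, just short of the threshold). Neither gene belongs to the surface layer alone. The median difference over all 21 genes was 0.19, against -0.0096 for all tested probe sets.

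Next by p were Aldh1a2, Sema3d, Tbx18 and Prg4, none of which passed. Aldh1a2, the enzyme that makes retinoic acid in the epicardium, gave 126, 103 and 60.2 in wild type, against 160, 204 and 150 in knockout. Its groups did not overlap, and the difference was 0.77 (95% interval 0.31 to 1.24, limma adjusted p = 0.0848). Sema3d, a guidance protein of the epicardium, had 0.47, Tbx18, an epicardial transcription factor, 0.29, and Prg4, a lubricating proteoglycan, 0.16, each with no overlap. Without wild type 3 Aldh1a2 had 0.51, Sema3d 0.30 and Tbx18 0.18. Tcf21, which marks epicardium-derived fibroblasts, was level at 350, 293 and 332 against 318, 332 and 356, a difference of 0.05 (95% interval -0.12 to 0.21). Aldh1a1 had -0.01, and Slpi, a secreted protease inhibitor, -0.30 with overlapping groups. Wild type 3 was the lowest of the 6 hearts in 15 of the 26 probe sets of this list, against 14.7% of all probe sets. Without wild type 3, 1 gene passed, and 1 also passed without knockout 1 and without knockout 2.

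Family relatives of the members that are not on the surface-layer lists went both ways. Of 10 such genes, 4 were tested at their brightest probe set. Gpm6b, the sister gene of Gpm6a, rose by 0.35 (limma, SE 0.074, adjusted p = 0.0420), with 124, 143 and 149 in wild type, against 183, 181 and 176 in knockout. Wild type 3 was its highest wild-type heart, unlike for Gpm6a. That call was lost when any single heart was left out. The bladder uroplakins Upk1a and Upk2 and the basal keratin Krt5 had -0.26, -0.23 and -0.21, with knockout below wild type and no overlap, and did not pass. Lrrn1, Lrrn2, Lrrn3, Upk3a, Bnc2 and Krt20 were too low to be tested. Of these Bnc2, the sister gene of Bnc1, gave 28.9, 31.7 and 26.8 in wild type at its brightest probe set. In knockout it gave 51.9, 45.8 and 36.4, with no overlap and a difference of 0.42. Its dimmer probe sets had differences of -0.01 and 0.0005, with overlapping groups.

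To find the genes whose pattern was most like that of Lrrn4, each profile over the 6 hearts was centred on its mean and the root mean square difference from Lrrn4 was taken in log2 units, over 19749 tested probe sets with 1 symbol. A gene that was flat over the hearts would stand at 0.62 from Lrrn4. The nearest was Aldh1a2 at 0.18. It was followed by Cdh11, a cadherin of mesenchymal cells, at 0.20, Igfbp6 at 0.22, Mmrn1, a platelet and endothelial protein, at 0.24, Cldn15 at 0.24, Prss23, a secreted protease, at 0.26, and the members Gpm6a at 0.26 and Upk1b at 0.28. The other members came at rank 15 (Upk3b), 38 (Krt19), 137 (Msln), 358 (Krt18), 822 (Krt8) and 2445 (Wt1) by their nearest probe set. The Upk1b value is also that of its nearest probe set, and its brightest one came at rank 4633. This measure includes the group difference on which Lrrn4 was chosen and is a description.

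With each group centred on its own mean, so that the knockout difference no longer counts, the order changed. A flat gene would then stand at 0.33. The nearest to Lrrn4 was the complement gene C2 at 0.11, then Upk3b at 0.11, Aldh1a2 at 0.12, Socs2, an inhibitor of cytokine signalling, at 0.14 and the kinase gene Araf at 0.14. Each of these was lowest in wild type 3, as was Lrrn4. The Lrrn4 range was 1.08 in wild type, against 0.28 in knockout, so this measure mostly reflects the wild-type hearts. Both Upk3b probe sets were among the 4 nearest. By their nearest probe set, Msln came at rank 11, Gpm6a at 15, Upk1b at 50, Krt19 at 160, Krt8 at 213, Krt18 at 717 and Wt1 at 7453. The other probe sets of these genes lay farther off, at 273 for Gpm6a, 767 and 4348 for Krt8, and 1014, 1972 and 16245 for Upk1b. The last is the brightest Upk1b probe set, at 0.38, farther from Lrrn4 than a flat gene.

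**Figure D4:**
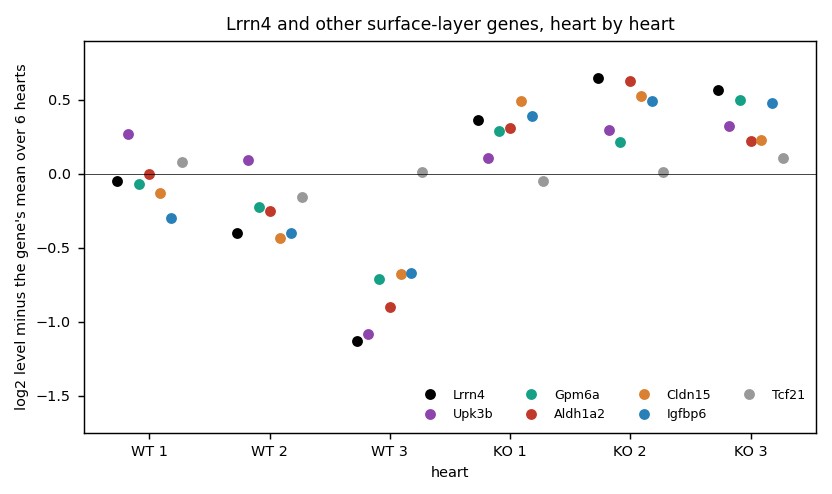
Log2 level of 7 genes in each heart, minus the gene's mean over the 6 hearts, at the brightest probe set. Lrrn4, Upk3b, Gpm6a, Aldh1a2, Cldn15 and Igfbp6 are lowest in wild type 3; Upk3b in wild type 1 lies among the knockout values and in wild type 2 just below, whereas Lrrn4 lies below in both, and Tcf21 stays near 0 throughout.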

How the data were processed

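Heart RNA (Trizol, then a column) was turned into biotin-labelled target from 2 ug per array, per the labels. GCOS 1.4 is the software that the submitters' processing notes list. Intensities in the deposited table are linear and cover 45101 probe sets, with summarisation, background correction and scaling not given in the sources used here. Detection calls were not used here, so a low value can be background.

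The 64 control probe sets were dropped. Trimmed means of the arrays differed by 8.42%, over a limit of 5%, so intensities were quantile normalised. The log2 values were computed here from the deposited intensities. Knockout minus wild type was fitted on log2(intensity + 16) with limma 3.58.1 in R 4.3.3 (lmFit, eBayes with a trend), with Benjamini-Hochberg adjustment over the upper 50% of probe sets by mean, the lowest at a log2 mean of 5.92. The fit was run on simulated data with independent noise of equal spread in both groups. No simulated heart stood apart from the others, so that case was not tested. With 3 arrays a group, their number limits the precision.

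The members, lists and tests were chosen with earlier results of these data known. Named were all member probe sets, list genes past the threshold with up to 4 next by p, the 8 genes nearest to Lrrn4 and the 5 nearest within groups. Names came from the platform annotation. Plin1 and Cfd, on the adipocyte list, were not analysed here.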

Additional observations from a re-analysis of the deposited data

How the results depend on the processing

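No paired analysis was possible because the knockout titles carry no replicate numbers. The count over all probe sets, 714, was 411 with no variance trend and 1171 with array weights, and 189 to 749 with 1 heart left out. The count of higher ones, 531, was 338 with no variance trend and 154 to 552 with 1 heart left out. The number of member probe sets called other than those of Lrrn4, 4, was 1 with the upper 25% of probe sets, where fewer were tested, and 0 to 3 with 1 heart left out. These are not all among the same 4: the 1 with the upper 25% is the brighter Gpm6a probe set, and Krt19 is among the 3 without wild type 2. The same count was 5 with the intensities as deposited, centred on the median or with a pseudocount of 64, and 6 with array weights. It was 3 with a pseudocount of 1, no filter on low values or no variance trend. The number of further surface-layer genes called, 2, was 1 with the upper 25%, 4 with array weights, and 1 to 2 with 1 heart left out. The 1 called relative, Gpm6b, was 0 with the upper 75%, the upper 25%, no filter on low values and no variance trend, and 0 to 0 with 1 heart left out. The cause was not tested. The Lrrn4 difference ran from 0.75 to 1.31 with 1 heart left out and was 0.78 with a pseudocount of 64 and 1.19 with a pseudocount of 1. No member probe set changed direction under any alternative run. The median of all tested probe sets moved from -0.0096 to 0.03 as deposited and 0.05 when centred on the median. Detection calls and background were not used here, so signal over background is not set beside these values.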

Other observations

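Among the 9 probe sets in which wild type 3 lay at least 0.5 below all other hearts on the log2 scale were also 4 genes with no place on the surface-layer lists. Ddit4, a stress-induced inhibitor of growth signalling, stood at 270 there and at 491 to 561 in the other 5 hearts. C2 stood at 30.9 against 59.0 to 79.6, Cdh11 at 95.6 against 149 to 282, and Itsn1, an endocytic scaffold protein, at 90.4 against 135 to 181. The other 5 probe sets belong to Upk3b (both), Lrrn4, Aldh1a2 and Bnc1. On the high side, Scd1, an enzyme of fatty acid desaturation, stood at 2148 in wild type 3 and at 289 to 713 elsewhere, and Fasn, fatty acid synthase, at 501 against 139 to 218. These genes were chosen after their values were seen.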
